A study of Mus musculus with 93 samples.

Results

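Pdgfrb encodes a receptor for platelet-derived growth factors. The 14 lineage+ cells described here were chosen by their Pdgfrb level, at 1 FPKM or more (fragments per kilobase of transcript, scaled to library size), out of 37 lineage+ cells kept for the comparison, and were set against the 23 kept cells below that level. They come from 93 single-cell libraries of mouse lung, of which 54 are labelled Tbx4 lineage+ and 39 are labelled as lineage- cells. The lineage+ cells were taken from the lungs of adult C57BL/6 mice of the genotype Tbx4cre;RosaTm and run on a Fluidigm C1 chip. Cre from the Tbx4 driver marks a cell and its descendants for good through the Rosa reporter, so the label records past driver activity and not Tbx4 expression at the time of the sort. Both Pdgfrb classes carry the same alleles and got no treatment that the labels name. The gate is written in the labels as epcam+ CD31- CD45- 7AAD-, but Epcam reached 1 FPKM in none of the 37 cells, and its highest value was 0.059 FPKM.

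Pdgfrb binds PDGF-BB and related dimers and signals through tyrosine phosphorylation to PI3 kinase, Ras and phospholipase C. In blood vessels the ligand made by endothelial cells recruits pericytes, the mural cells that wrap capillaries, and Pdgfrb is widely used as a pericyte marker together with Cspg4, Rgs5 and Notch3. The receptor is also made by fibroblasts, among them the adventitial fibroblasts of the cuffs around large vessels and airways, which carry Pi16, Cd34 and Col14a1, while alveolar fibroblasts of the air sac walls carry Tcf21, Npnt and Inmt. The comparison asks which of these gene groups went with Pdgfrb.

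The 54 libraries gave 52 cells after 2 pairs of near-identical profiles were averaged (Pearson r 0.997 and 0.996 on log2 of FPKM plus 1, the next highest of 1431 pairs being 0.596). A further 2 cells had under 1000 genes at 1 FPKM. Of the remaining 50 cells, 13 were left out because they had more than 1 of the mesothelial genes Msln, Upk3b, Upk1b, Nkain4 and Lrrn4, and 3 of those 13 had Pdgfrb. No animal, culture or chip is named within the lineage+ group, so it counts as 1 sample, cells are not replicates of a condition, and no p-value or standard error was made. Intervals on shares of cells are exact Clopper-Pearson 95% intervals and cover counting error only. The read depth behind an FPKM value is unknown, and genes detected per cell stand in for it below. Tbx4, Pdgfra and Ptprc have no usable values.

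Pdgfrb was at 1 FPKM or more in 14 of 37 cells, a share of 37.8% (22.5% to 55.2%). In ascending order the 14 cells held 1.13, 1.15, 3.92, 4.43, 10.4, 12.1, 13.6, 13.6, 13.9, 14.9, 16.6, 34.6, 67.8 and 72.3 FPKM, with a median of 13.6. They were spread widely, with 7 cells between 10 and 20 FPKM and 3 above 30. Of the 23 Pdgfrb-low cells, 14 were listed at exactly 0 and 9 lay above 0. Next to the threshold, lineage+ cells 40 and 1 stood just inside it at 1.13 and 1.15 FPKM, and cells 21, 3 and 25 just outside it at 0.875, 0.726 and 0.581 FPKM. Among 34 lineage- cells kept by the same rule, 1 had Pdgfrb, at 9.38 FPKM, which is 2.94% (0.0744% to 15.3%). No source used here says if both lineage tables share a scaling.

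**Figure D1:**
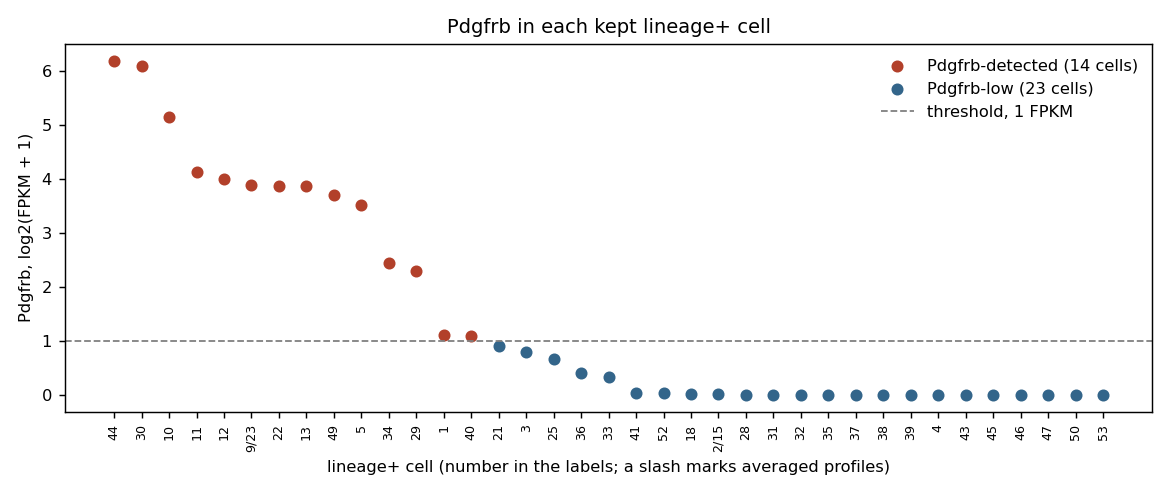
Pdgfrb in each of the 37 kept lineage+ cells, as log2 of FPKM plus 1, in descending order. Red points are the 14 Pdgfrb-detected cells, blue points the 23 Pdgfrb-low cells, and the dashed line marks 1 FPKM. The red points run from 1.13 to 72.3 FPKM, and 14 blue points lie at 0.

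The classes also differed in how much was detected. Genes at 1 FPKM per cell ran from 1558 to 2930 with a median of 2450.5 in Pdgfrb-detected cells, and from 1071 to 3708 with a median of 2122 in Pdgfrb-low cells. The ranges overlap, but 6 Pdgfrb-low cells lay below the lowest Pdgfrb-detected cell and 2 above the highest. Summed FPKM per cell had medians of 315936 and 247583. Across the 37 cells, Spearman's rho of Pdgfrb was 0.198 with genes detected and 0.448 with summed FPKM. The part of this gap in the results below was not tested. Values within 2000 to 3000 genes per cell are given for some lists and genes only. That window held 12 cells of each class, with median gene counts of 2528 and 2459.5. Of the 24 genes named below for the highest and lowest ratios, 15 moved by over 1.5-fold in the window and 9 did not.

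Of 6903 genes that reached 1 FPKM in 10% or more of either class, 1828 (26.5%) had a mean at least 2-fold higher in Pdgfrb-detected cells and 1579 (22.9%) a mean at least 2-fold lower. The ratio is of class means after adding 1 FPKM, which understates the difference of low genes. With 14 and 23 sparse profiles, such ratios were common. With means of log2 values in place of log2 of means, 891 genes were higher and 249 lower. A stricter rule, which also asked for a share of cells at 1 FPKM that differed by 25 percentage points, was met by 305 genes (4.42%) in the higher and 81 genes (1.17%) in the lower direction. The median log2 ratio over all genes was 0.11, and the median share was 5.28 points higher in Pdgfrb-detected cells. Gene lists are read against these values. Scaling all cells to a common total moved the median of all genes from 0.11 to -0.10.

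Adventitial fibroblast genes were the marker group with the largest number of members higher in Pdgfrb-detected cells. Of 17 listed genes, 14 had values, and all 14 passed the detection filter. The ratio was at least 2-fold higher for 8 of the 14 (26.5% of all genes) and at least 2-fold lower for 0 (22.9% of all genes), with a median log2 ratio of 1.03 beside 0.11. By the stricter rule 5 of 14 were higher, against 4.42% of all genes. These were Pi16, Lum, Serpinf1, Cd34 and Col14a1, and the median difference in share over the list was 30.3 points. With cells scaled to a common total, 6 of the 14 were past 2-fold, beside 21.5% of all genes. With the median of widely detected genes set to 0, 6 of the 14 were, beside 23.5% of all genes.

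Pi16, a secreted peptidase inhibitor that marks adventitial fibroblasts, ran from 0 over a median of 51.0 to 1423 FPKM in Pdgfrb-detected cells and from 0 over a median of 0 to 94.7 FPKM in Pdgfrb-low cells. It was found in 11 of 14 cells against 7 of 23, and the log2 ratio was 4.01. The highest cell, number 22, had more than 3 times the level of the next one at 423 FPKM, yet the log2 ratio without the highest cell of each class was still 3.56. The gene lies at chr17:29318882-29328902 (GRCm38).

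Cd34, a surface sialomucin of stromal progenitors and endothelium, was detected in every Pdgfrb-detected cell, from 3.53 over a median of 313 to 1059 FPKM. In Pdgfrb-low cells it was found in 15 of 23, with a median of 16.3 and a highest value of 581 FPKM, and the log2 ratio was 1.86. Col14a1, a fibril-associated collagen, was likewise in 14 of 14 cells, from 10.4 to 372 FPKM, and in 12 of 23 Pdgfrb-low cells, where the median was 3.49 FPKM, for a log2 ratio of 1.64. The classes overlapped for both genes, and every cell below 1 FPKM was Pdgfrb-low.

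Serpinf1, which encodes the anti-angiogenic factor PEDF, had a median of 438 FPKM against 0 and was found in 10 of 14 against 9 of 23 cells, for a log2 ratio of 2.05. Lum, a small leucine-rich proteoglycan, was in 7 of 14 against 3 of 23 cells, for a log2 ratio of 2.18. Igfbp4 (1.49), Clec3b (1.06) and Dpt (1.00) also reached 2-fold. The list was not uniform. Mfap5 (0.59), Fbn1 (0.88), Col15a1 (0.19) and Has1 (-0.01) were within 2-fold, and the log2 ratio was below 0 for Ly6a (-0.38) and Ccl11 (-0.53). Pdgfrb-low cell 25 held 6987 FPKM of Ly6a and 1628 FPKM of Ccl11, and without the highest cells the ratios turned to 0.31 and 0.18. Ly6a encodes Sca-1, a widely used progenitor surface marker, and reached 1 FPKM in 12 of 14 against 12 of 23 cells. Ccl11, a chemokine for eosinophils, did so in 8 of 14 against 4 of 23.

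**Figure D2:**
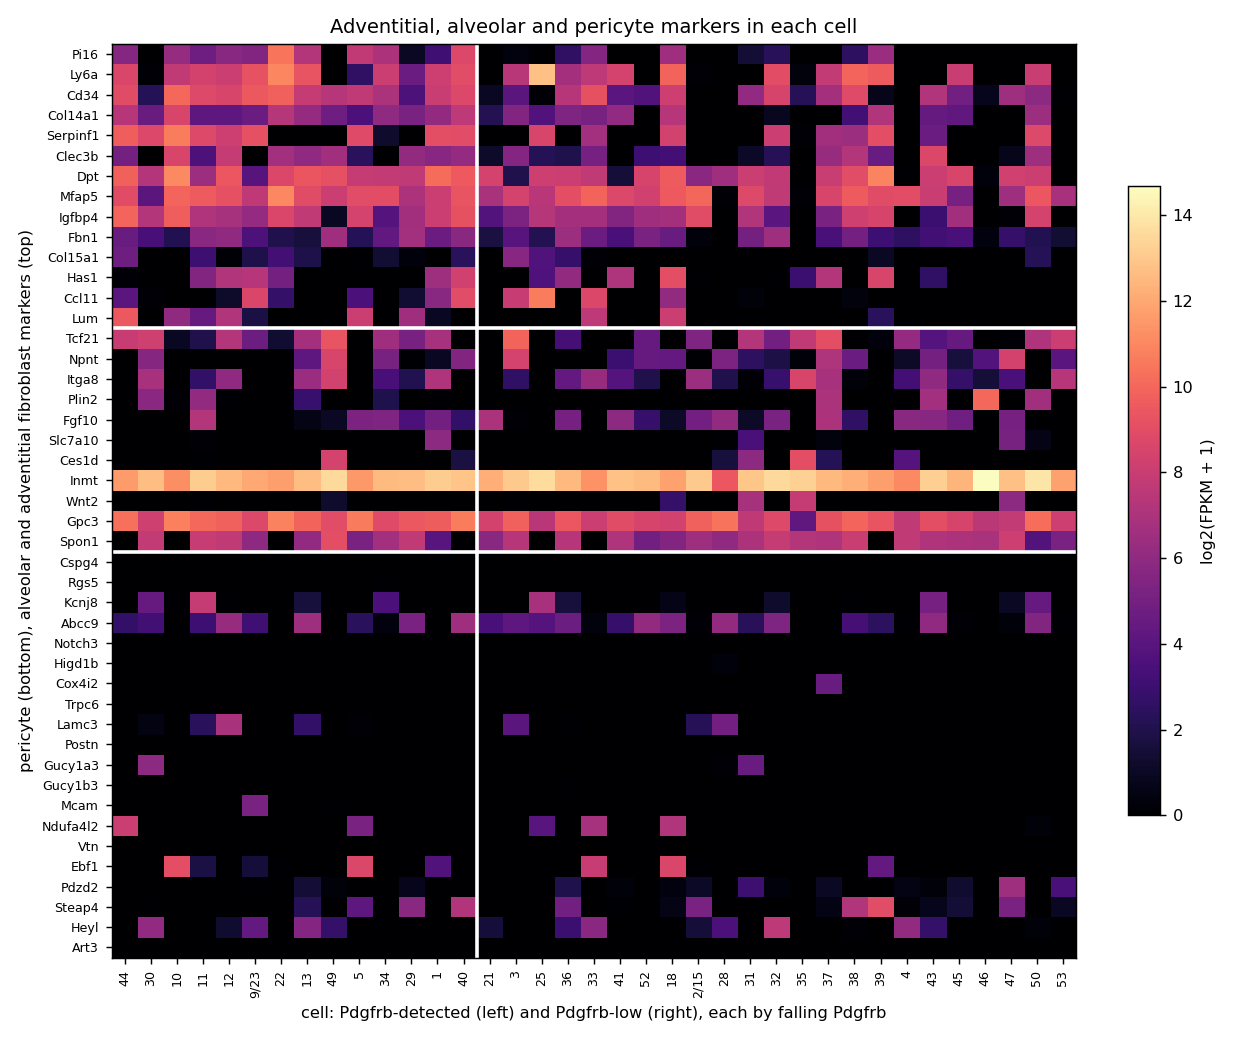
Heat map of log2 of FPKM plus 1, with 1 column per kept cell (Pdgfrb-detected left of the white line, Pdgfrb-low right of it, each by falling Pdgfrb) and 1 row per gene (adventitial at the top, alveolar in the middle, pericyte at the bottom). Cd34 and Col14a1 are lit in all 14 Pdgfrb-detected cells and in 15 and 12 of the 23 Pdgfrb-low cells, and 9 pericyte rows stay dark in every cell.

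Counted per cell, Pdgfrb-detected cells held 6 to 13 of the 14 adventitial genes at 1 FPKM, with a median of 12. Pdgfrb-low cells held 0 to 13, with a median of 8. At least 9 genes were found in 12 of 14 and in 11 of 23 cells, and at least 11 in 9 of 14 and in 5 of 23. The Pdgfrb-low class held 7 cells with under 6 adventitial genes, and the Pdgfrb-detected class 0. Those 7 cells had 6 to 8 of the 11 alveolar genes with values and a Pdgfrb level of at most 0.0116 FPKM. They also had few genes detected, from 1071 to 1949. The other 16 Pdgfrb-low cells held 6 to 13 adventitial genes, with a median of 9.5. Among those 16, cells 25, 39 and 21 held 11, 12 and 6 at 1241, 1571 and 1890 genes detected. The part of genes detected in these counts was not tested.

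Within 2000 to 3000 genes per cell the difference was smaller. Of the 14 adventitial genes, 4 were at least 2-fold higher, which is 28.6% beside 26.2% of all genes tested there. Their median log2 ratio was 0.65 and their median difference in share 8.33 points. The count per cell had medians of 12 and 9, and both classes ran from 6 to 13. The 4 genes were Pi16 (log2 ratio 2.75, 9 of 12 against 5 of 12 cells), Serpinf1 (1.60), Lum (1.44) and Igfbp4 (1.15), whereas Cd34 stood at 0.67 and was detected in all 12 cells of both classes. Clec3b turned to -0.39 (9 of 12 against 10 of 12 cells) and Mfap5 to -0.19. Keeping every cell with 2000 or more genes also left 4 of 14, beside 24.8% of all genes. Across all 37 cells rho of the adventitial count was 0.584 with Pdgfrb and 0.408 with genes detected, and within the 14 Pdgfrb-detected cells it was 0.147 with Pdgfrb.

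**Figure D3:**
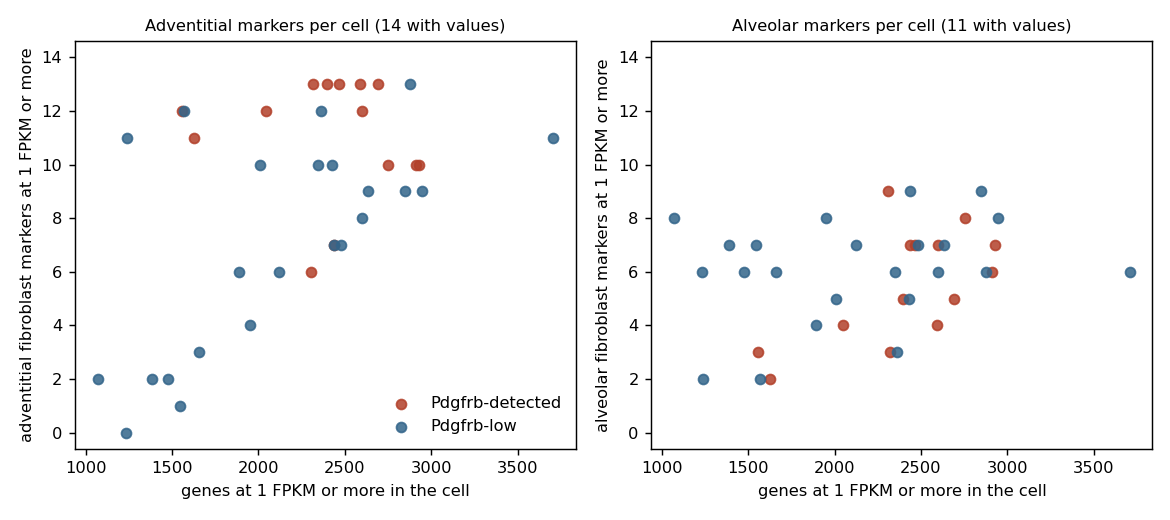
Number of adventitial genes (left, of 14) and of alveolar fibroblast genes (right, of 11) at 1 FPKM or more in each cell, against genes detected in that cell. Red points are Pdgfrb-detected and blue points Pdgfrb-low cells. The 7 cells with under 6 adventitial genes are all Pdgfrb-low and have 1071 to 1949 genes detected.

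Alveolar fibroblast genes were present in both classes, with ratios on both sides of 0. Of 12 listed genes 11 had values and 10 passed the filter, of which 1 was at least 2-fold higher (26.5% of all genes) and 2 at least 2-fold lower (22.9% of all genes), and the median log2 ratio was -0.17. Their median difference in share was -8.85 points, beside 5.28 over all genes. Tcf21, a transcription factor of lung fibroblasts, was in 11 of 14 against 13 of 23 cells, with means of 121 and 107 FPKM. Inmt, an amine methyltransferase abundant in lung stroma, was in all 37 cells, with medians of 6379.7 and 6183 FPKM. Gpc3, a heparan sulphate proteoglycan, was also in all cells and had means of 1016 and 506 FPKM, a log2 ratio of 1.00. Its lowest value was 297 FPKM in Pdgfrb-detected and 18.1 FPKM in Pdgfrb-low cells.

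The widest gap in detection in the list was that of Npnt, which encodes the matrix protein nephronectin. It was in 5 of 14 against 15 of 23 cells, with medians of 0.0317 and 4.57 FPKM, and its log2 ratio of -0.21 was -1.32 without the highest cells. Both members past 2-fold on the lower side were sparse. Wnt2, a Wnt ligand of lung mesenchyme, was in 1 of 14 against 4 of 23 cells, with a log2 ratio of -4.10. Plin2, a lipid droplet coat protein, was in 4 cells of each class (28.6% and 17.4%). Its log2 ratio of -2.55 was -1.37 without the highest cells, since Pdgfrb-low cell 46 held 1086 FPKM. Fgf10, a growth factor that acts on the epithelium, was in 7 of 14 against 15 of 23 cells, with a log2 ratio of -0.52, and -1.23 without the highest cells. Adventitial and alveolar genes met in the same cells, since 8 Pdgfrb-detected and 3 Pdgfrb-low cells had both Tcf21 and Pi16. The counts of both lists were nevertheless inversely ranked over the 37 cells, at a rho of -0.534, and rho of the alveolar count with Pdgfrb was -0.328.

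Genes shared by most fibroblasts were found throughout. Of 16 listed, 14 passed the filter, with a median log2 ratio of 0.63. Of these 1 was at least 2-fold higher and 0 lower (26.5% and 22.9% of all genes). That gene was Col1a1, the main chain of type I collagen, with means of 94.8 and 41.9 FPKM, found in 14 of 14 against 19 of 23 cells, and a log2 ratio of 1.16. Thy1 was at 1 FPKM in none of the cells. Only 3 of the 11 myofibroblast genes passed, namely Aspn (1.58), Mustn1 (1.26) and Hhip (-0.86). Without the highest cells Mustn1 stood at 0.50 and Hhip turned to 0.25, a Pdgfrb-low cell having held 133 FPKM of it, and Hhip was in 5 of 14 against 4 of 23 cells. The genes Tnc, Lgr6 and Fgf18 were at 1 FPKM in no cell. The myofibroblast median of 1.26 was 0.50 without the highest cell of each class and 0.46 within 2000 to 3000 genes.

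The pericyte list had few detectable members in either class. All 20 genes had values, and 9 of them reached 1 FPKM in none of the 37 cells. These were Cspg4 (the NG2 proteoglycan), Rgs5 (a regulator of G-protein signalling), Notch3, Higd1b, Trpc6, Postn, Gucy1b3, Vtn and Art3. A count of 0 of 14 cells allows a share of up to 23.2% by the exact interval. A further 3 genes were too rare to pass the filter. Cox4i2 was found in 1 Pdgfrb-low cell, Mcam in 1 Pdgfrb-detected cell and Gucy1a3 in 1 cell of each class.

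Of the 8 pericyte genes that passed, 3 were at least 2-fold higher (26.5% of all genes) and 2 at least 2-fold lower (22.9% of all genes), and 0 met the stricter rule (4.42% and 1.17% of all genes). Kcnj8 and Abcc9 encode the subunits of the potassium channel that pericytes use. Kcnj8 was in 4 of 14 against 5 of 23 cells, with means of 19.5 and 7.58 FPKM. Its log2 ratio of 1.26 rested on lineage+ cell 11 at 238 FPKM and was 0.01 without the highest cell of each class. Abcc9 was in 9 of 14 against 14 of 23 cells, with means of 23.4 and 17.9 FPKM and a log2 ratio of 0.37.

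Both channel subunits were together in 3 Pdgfrb-detected and 5 Pdgfrb-low cells. Lamc3, a laminin chain, was in 3 cells of each class, with means of 9.16 and 2.21 FPKM. Its log2 ratio of 1.66 rested on cell 12 at 118 FPKM and was -0.11 without the highest cell of each class. Ebf1, a transcription factor of several mesenchymal and B-lymphoid lineages, was in 5 of 14 against 3 of 23 cells, with means of 69.4 and 28.8 FPKM and a log2 ratio of 1.24, and 1.39 without the highest cells.

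The remaining pericyte genes had ratios on both sides of 0. Pdzd2, a PDZ domain protein, was in 1 of 14 against 7 of 23 cells, with means of 0.201 and 4.93 FPKM and a log2 ratio of -2.31, which was -0.98 without the highest cells. Steap4, a metalloreductase, was in 4 of 14 against 6 of 23 cells, with means of 15.5 and 32.6 FPKM and a log2 ratio of -1.02, which was -0.90 without the highest cells. Heyl, a Notch target, was in 5 of 14 against 8 of 23 cells (means of 9.82 and 15.0 FPKM, log2 ratio -0.56). Ndufa4l2 was in 2 of 14 against 3 of 23 cells (22.2 and 11.8 FPKM, log2 ratio 0.85), and the ratio turned to -0.81 without the highest cells, since 1 Pdgfrb-detected cell held 274 FPKM.

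Per cell, both classes had a median of 2 pericyte genes, over 0 to 6 in Pdgfrb-detected and 0 to 5 in Pdgfrb-low cells. The median log2 ratio of 0.61 depended on single cells and was -0.18 when the highest cell of each class was left out. Among cells with none of the 5 mesothelial genes (4 Pdgfrb-detected and 15 Pdgfrb-low) 1 of 8 was higher and 5 were lower. Of all genes 26.0% were higher and 40.5% lower there. The median log2 ratio was -1.92 for the list and -0.47 over all genes.

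Smooth muscle genes gave 6 of 12 that passed, with 1 higher (26.5% of all genes) and 3 lower (22.9% of all genes). The median log2 ratio was -0.81, and -0.75 with 3 lower when the highest cells were left out. Within 2000 to 3000 genes 1 of 5 was lower, with a median of -0.19. With no mesothelial filter 0 of 6 were lower (median -0.03), and with means of log2 values 0 of 6 (median -0.17). Tagln, an actin-binding protein of smooth muscle, was listed at 0 in every Pdgfrb-detected cell and was in 4 of 23 Pdgfrb-low cells, with a highest value of 197 FPKM. Des, an intermediate filament protein, was in 1 against 3 cells (-2.63), and Acta2, smooth muscle actin, in 5 of 14 against 6 of 23 (-1.06). With means of log2 values Des stood at -0.57 and Acta2 at 0.23. Tpm2, a tropomyosin, was the member on the higher side, in 5 of 14 against 2 of 23 cells (2.55). Myh11 and Cnn1 were at 1 FPKM in none of the cells.

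**Figure D4:**
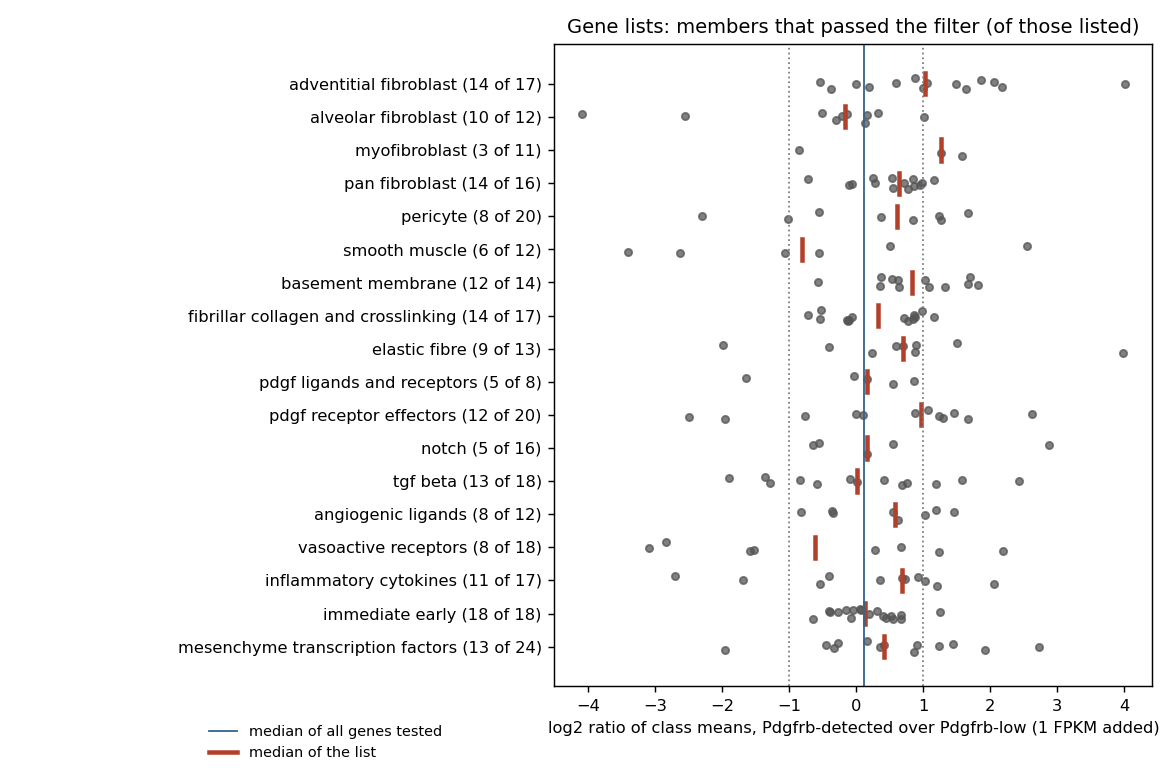
Log2 ratio of class means (Pdgfrb-detected over Pdgfrb-low, 1 FPKM added) for the members of each list that passed the detection filter, with the number that passed of those listed. Red bars are list medians, the blue line is the median of all genes at 0.11, and dotted lines mark 2-fold. The adventitial bar lies at 1.03, the alveolar bar at -0.17 and the pericyte bar at 0.61. Genes listed at 0 in a class are drawn at the ratio that the added 1 FPKM gives.

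Among the partners of the receptor, its ligands were rare. Pdgfb and Pdgfc were listed at 0 in all 37 cells. Pdgfa was in 4 of 14 against 3 of 23 cells, with a log2 ratio of 0.54. Pdgfd, a ligand of PDGFRB, was in 3 of 14 against 4 of 23 cells, with means of 4.49 and 16.3 FPKM and a log2 ratio of -1.65. Pdgfrl, a receptor-like gene, had a log2 ratio of 0.86, and Nrp1, a co-receptor, one of -0.04. Of the 5 ligand and receptor genes that passed, 0 were higher and 1 lower (26.5% and 22.9% of all genes). Their median was 0.17, and -0.24 without the highest cells.

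Downstream of the receptor, 12 of 20 listed effectors passed, and 6 were at least 2-fold higher (26.5% of all genes) and 2 lower (22.9% of all genes), with a median log2 ratio of 0.97. The example with the widest detection gap was Pik3ca, the catalytic subunit of PI3 kinase. It was in 7 of 14 against 2 of 23 cells, with medians of 0.848 and 0.0511 FPKM, highest values of 46.2 and 2.20 FPKM and a log2 ratio of 2.62. Pik3r2, a regulatory subunit of the same enzyme, was at 1 FPKM in 0 of 14 against 4 of 23 cells (-2.50), and the adaptor Nck1 in 2 against 7 (-1.95). Rasa1, a Ras GTPase-activating protein, had a log2 ratio of 1.67 that became -0.23 without the highest cells. The median of the list was 0.17 with the highest cells left out.

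Genes of the basement membrane, the sheet of matrix that pericytes share with endothelium, gave 12 of 14 that passed, of which 6 were at least 2-fold higher (26.5% of all genes) and 0 lower (22.9% of all genes), with a median log2 ratio of 0.83. Col4a1, a chain of type IV collagen, had medians of 19.4 and 1.66 FPKM and was in 12 of 14 against 13 of 23 cells, with a log2 ratio of 1.70. Nid1, which links laminin to collagen IV, had medians of 20.3 and 0.525 FPKM and was in 10 of 14 against 11 of 23 cells, with a log2 ratio of 1.82. Col4a2 had a log2 ratio of 1.33, and Lamc3 is described above. Within 2000 to 3000 genes, 5 of 12 were higher and 2 lower, with a median of 0.95, beside 26.2% and 25.1% of all genes. Under each of the other scalings named above 4 were at least 2-fold higher, beside 21.5% and 23.5% of all genes. Among cells with none of the 5 mesothelial genes 3 were higher and 3 lower, beside 26.0% and 40.5% of all genes. The median of the list was -0.26 there, and that of all genes -0.47.

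Other matrix groups were less one-sided. Over all genes 26.5% were higher and 22.9% lower. Fibrillar collagens and their crosslinking enzymes gave 14 of 17 that passed, with 1 higher and 0 lower, and a median of 0.33. It became -0.03 when cells were scaled to a common total, beside -0.10 over all genes. Among cells with none of the 5 mesothelial genes it was -0.45, beside -0.47 over all genes. Of 9 elastic fibre genes 2 were higher and 1 lower, with a median of 0.70. Fbln2, a fibulin of elastic fibres and basement membranes, was in 5 of 14 against 3 of 23 cells (3.97), and Fbln5, needed for elastic fibre assembly, in 11 of 14 against 12 of 23 (1.50). Emilin1, an elastin-associated glycoprotein, was in 7 of 14 against 10 of 23 cells, with a log2 ratio of -1.99.

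Signalling lists went both ways. Over all genes 26.5% were higher and 22.9% lower. Of 5 Notch pathway genes that passed, Jag1, a Notch ligand, was the 1 past 2-fold. It had medians of 13.2 and 0 FPKM and highest values of 217 and 48.6 FPKM, was in 8 of 14 against 7 of 23 cells, and had a log2 ratio of 2.88. The TGF-beta list had 3 higher and 3 lower of 13, with a median of 0.01, and its extremes were Smad4, the common mediator (2.42), and Tgfb2, a ligand (-1.90). Tgfbi, an extracellular target, had a log2 ratio of 1.58 and Tgfbr2, a receptor, one of -1.36.

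Receptors for vasoactive signals gave 2 higher and 4 lower of 8 (26.5% and 22.9% of all genes), with a median of -0.62. Examples were S1pr3 (-2.84), Adra1a (2.19) and Ednra, the endothelin receptor, which was in 4 of 14 against 10 of 23 cells (-1.58). Adra1a turned to -0.15 without the highest cells, and the median of the list to 0.99 with Pdgfrb above 0 as the class. Angiogenic ligands gave 3 higher and 0 lower of 8 (26.5% and 22.9% of all genes), with a median of 0.58. Among cells with none of the 5 mesothelial genes 1 was higher and 2 lower, beside 26.0% and 40.5% of all genes. The median was -0.21 there, beside -0.47 over all genes. Among the ligands Cxcl12, a chemokine made by stromal cells, was in 11 of 14 against 17 of 23 cells. Its means were 209 and 102 FPKM, and its log2 ratio was 1.03. Vegfc (1.46) was in 2 cells against 1, and Angpt2 (1.19) in 6 against 8. Vegfc stood at 0.60 without the highest cells.

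Immediate early genes, which respond to stress and cell dissociation, gave 18 of 18 that passed, with a median of 0.13. Of these 1 was higher and 0 lower (26.5% and 22.9% of all genes). The exception was Klf4, a zinc finger transcription factor, in 14 of 14 against 12 of 23 cells, with medians of 121 and 2.95 FPKM and a log2 ratio of 1.25. Of 11 cytokine and chemokine genes 3 were higher and 2 lower (26.5% and 22.9% of all genes), with a median of 0.69. Among cells with none of the 5 mesothelial genes their median was -1.05, beside -0.47 over all genes. Ccl2 (-2.70) and Ccl7 (-1.69) were each in at most 5 cells of a class, Cxcl10 (2.06, and -2.17 without the highest cells) was in 1 Pdgfrb-detected cell, and Ptgs2, an inducible prostaglandin synthase, was in 10 of 14 against 9 of 23 cells, with means of 122 and 52.6 FPKM. The lipid storage list had 2 higher and 2 lower of 5 (26.5% and 22.9% of all genes), with a median of 0.41. Among cells with none of the 5 mesothelial genes its median was -0.99, beside -0.47 over all genes. Of the cell cycle list 3 of 14 passed, with 0 higher and 1 lower (26.5% and 22.9% of all genes).

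Among mesenchyme transcription factors, 4 of 13 were higher and 1 lower (26.5% and 22.9% of all genes), with a median of 0.41. Prrx1, a homeobox gene of limb and stromal mesenchyme, was in 11 of 14 against 11 of 23 cells, with medians of 15.4 and 0.0926 FPKM and a log2 ratio of 1.92. Twist2 was listed at 0 in every Pdgfrb-low cell and was in 3 Pdgfrb-detected cells, up to 35.3 FPKM. Hoxa5, which patterns the lung, was in 4 of 14 against 2 of 23 cells (1.44), and Tbx2, a T-box factor of lung mesenchyme, in 2 against 7 (-1.96). Within 2000 to 3000 genes the median of the list was -0.05.

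Across all genes, 306 met the rule for the higher direction and 87 for the lower, which asked for detection in at least 50% of the cells of the higher class and a 2-fold ratio that held without the highest cells. Gypc, a glycophorin that anchors the membrane skeleton, reached 1 FPKM in one class alone among the 37 kept cells. It ran from 0 over a median of 15.0 to 223 FPKM in Pdgfrb-detected cells and was found in 10 of 14. None of the 23 Pdgfrb-low cells reached 1 FPKM, and their highest value was 0.327. The log2 ratio of 5.79 is set largely by the added 1 FPKM, since the low mean was 0.0403. Within 2000 to 3000 genes Gypc was in 9 of 12 against 0 of 12 cells, and among cells with none of the 5 mesothelial genes in 3 of 4 against 0 of 15. Its log2 ratio was 2.12 with no mesothelial filter and 2.05 with Pdgfrb at 10 FPKM or more as the class.

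Cxcr7, a scavenging receptor for the chemokine Cxcl12, ran from 0 over a median of 26.8 to 675 FPKM in Pdgfrb-detected cells and was in 10 of 14. In Pdgfrb-low cells it was in 2 of 23, with values of 110 and 1.03 FPKM, and the log2 ratio was 4.37. Within 2000 to 3000 genes it was in 8 of 12 against 2 of 12 cells. The gene lies at chr1:90203980-90215722 (GRCm38). Entpd2, an ectonucleotidase that hydrolyses extracellular ATP, was in 10 of 14 against 5 of 23 cells, with medians of 95.7 and 0 FPKM and a log2 ratio of 3.95, and 1.65 within 2000 to 3000 genes.

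Ctsk, the collagen-degrading protease cathepsin K, was in 7 of 14 against 1 of 23 cells, with a log2 ratio of 6.05 (chr3:95499286-95509362, GRCm38). Its highest values were 604 and 8.60 FPKM. The ratio rested largely on cells 10 and 44, at 604 and 538 FPKM, and the Pdgfrb-detected median was 1.71 FPKM. Leaving out the highest cell of each class removes cell 10 but not cell 44, and gave 5.69. With means of log2 values the log2 ratio was 2.53. Among cells with none of the 5 mesothelial genes Ctsk was in 1 of 4 against 0 of 15, the 1 being cell 10. Gna11, a G-protein alpha subunit, was in 8 of 14 against 0 of 23 cells, and Ssbp3, a DNA-binding cofactor, in 9 of 14 against 1 of 23. The log2 ratios were 4.24 and 4.12. Gna11 had a median of 1.41 FPKM in Pdgfrb-detected cells and a highest value of 0.865 FPKM in Pdgfrb-low cells. With no mesothelial filter Gna11 and Ssbp3 stood at 3.70 and 0.73. With Pdgfrb at 10 FPKM or more as the class they stood at 1.90 and 0.95. Among cells with none of the 5 mesothelial genes the ratios were 3.52 and 0.80, with Ssbp3 in 1 of 4 against 1 of 15 cells. Plin3, a lipid droplet protein, was in 12 of 14 against 11 of 23 cells, with medians of 22.5 and 0.941 FPKM and a log2 ratio of 4.02. The remaining members of the 12 highest were Pxdc1 (6.00), Ccnh (3.94), Tmco3 (3.84), Pi16 and Nkain4.

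Nkain4 needs its own account, because the rule left out cells that had it together with another of the mesothelial genes. It is 1 of the 5 mesothelial genes, and it was in 9 of 14 against 5 of 23 cells, with medians of 61.9 and 0 FPKM and a log2 ratio of 4.51. When cells with several mesothelial genes were kept, its log2 ratio was -0.66. Exactly 1 of the 5 genes was found in 10 of 14 Pdgfrb-detected and 8 of 23 Pdgfrb-low cells, and the summed level of the mesothelial list had medians of 174 and 0.0711 FPKM. Of the 12 mesothelial genes with values, 10 reached 1 FPKM in none of the cells, Msln, Wt1, Krt19 and Krt8 among them. Among the cells with none of the 5 genes, 4 were Pdgfrb-detected and 15 Pdgfrb-low, and of the 14 adventitial genes 8 were at least 2-fold higher and 2 at least 2-fold lower there (Ccl11 and Has1), beside 26.0% and 40.5% of all genes. The part of the mesothelial genes in the other results was not tested beyond these counts.

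**Figure D5:**
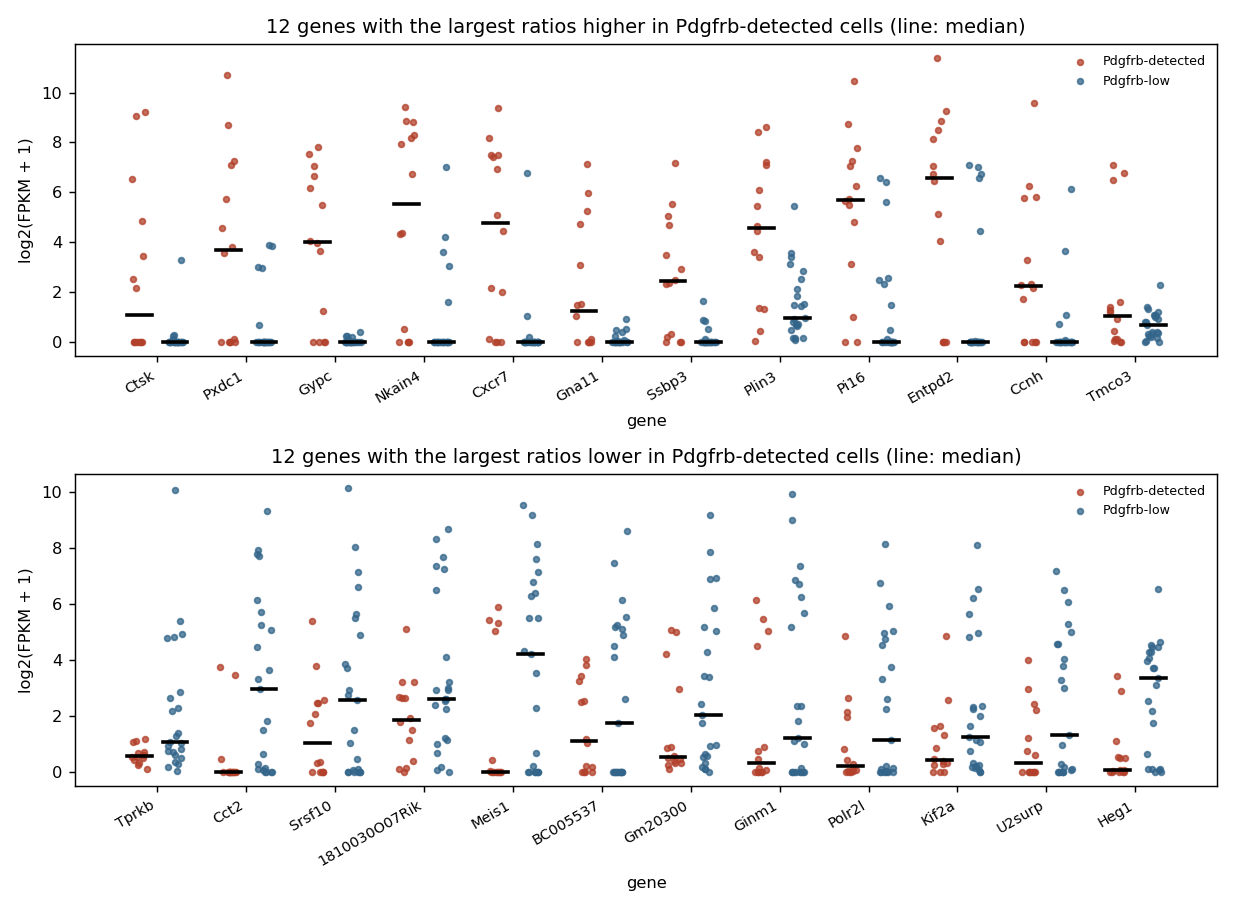
Levels of the named genes with the highest and lowest ratios, in each class, as log2 of FPKM plus 1 per cell, with black lines at class medians. Gypc and Gna11 reach 1 FPKM in 10 and 8 of the 14 Pdgfrb-detected cells and in none of the 23 Pdgfrb-low cells, and Heg1 does so in 3 of 14 against 16 of 23.

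In the lower direction, Heg1 had the widest gap in detection among the 12 lowest genes. It encodes a membrane protein of heart and vessel development and ran from 0 over a median of 0.0411 to 9.85 FPKM in Pdgfrb-detected cells and from 0 over a median of 9.15 to 92.5 FPKM in Pdgfrb-low cells, being found in 3 of 14 against 16 of 23. The log2 ratio was -2.58, and -3.40 within 2000 to 3000 genes. It was -1.44 with no mesothelial filter. Among cells with none of the 5 mesothelial genes it was -0.85, with Heg1 found in 2 of 4 against 9 of 15 cells. Meis1, a homeobox transcription factor, was in 4 of 14 against 14 of 23 cells, with medians of 0 and 17.8 FPKM. Its log2 ratio was -2.96. Within 2000 to 3000 genes Meis1 was in 4 of 12 against 7 of 12 cells, with a log2 ratio of -1.75. Cct2, a chaperonin subunit, was in 2 of 14 against 14 of 23 cells, with a log2 ratio of -4.70.

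The other 9 of the 12 lowest were broadly expressed or uncharacterised genes, and a single cell held much of the mean in several. Tprkb (-5.15) was -2.40 without the highest cells, its highest value in a Pdgfrb-low cell being 1093 FPKM. Srsf10, a splicing factor, had a log2 ratio of -3.67, and Polr2l, an RNA polymerase subunit, one of -2.76. Ratios for 1810030O07Rik, BC005537, Gm20300, Ginm1, Kif2a and U2surp lay between -3.31 and -2.68.

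The 10 genes whose levels ranked most like Pdgfrb over the 37 cells, among 3648 genes detected in at least 20% of them, had Spearman's rho from 0.562 to 0.637, where the median over all ranked genes was 0.0707. Cxcr7 came first at 0.637. It was followed by Nenf (0.613), which encodes a secreted neurotrophic factor, Fgfr1 (0.612), a fibroblast growth factor receptor, Efcab14 (0.595), S100a6 (0.595), Itm2c (0.586), Antxr2 (0.585), Eif4a1 (0.573), Klf4 (0.573) and Cd44 (0.562). All points share 1 preparation and differ in genes detected. Within the 14 Pdgfrb-detected cells rho ran from -0.26 to 0.44 for these genes.

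Fgfr1 was in 14 of 14 against 13 of 23 cells, with means of 27.6 and 14.5 FPKM and a log2 ratio of 0.88. Nenf was in 11 of 14 against 4 of 23 cells, with a log2 ratio of 2.80, and in 10 of 12 against 1 of 12 within 2000 to 3000 genes. Cd44, the hyaluronan receptor, was in 10 of 14 against 8 of 23 cells, with a log2 ratio of 2.70. Antxr2, a receptor for collagen VI, was in 12 of 14 against 7 of 23 cells. Its log2 ratio was 1.49, and 0.74 within 2000 to 3000 genes.

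Markers of other cell types were few per cell in both classes, with at most 3 endothelial, 2 epithelial and 1 immune gene. Of the endothelial list, Pecam1, Cdh5, Cldn5, Tie1, Flt1 and Vwf were listed at 0 in all 37 cells, while at least 1 endothelial gene was in 8 of 14 against 9 of 23 cells. Tek, the angiopoietin receptor, was in 6 of 14 against 2 of 23 cells (log2 ratio 2.48), and the summed list ran from 0 to 146 FPKM in Pdgfrb-detected and from 0 to 67.1 FPKM in Pdgfrb-low cells. Some epithelial gene was in 6 of 14 against 10 of 23 cells, and Sftpc and Scgb1a1 had log2 ratios of -2.74 and -3.13 (-0.65 and -2.22 without the highest cells) and the summed list reached 8.42 and 212 FPKM. Some immune gene was in 2 of 14 against 4 of 23 cells, up to summed levels of 117 and 318 FPKM. Cd68 was listed at 0 in every Pdgfrb-detected cell. Of the 6 glial genes with values none was at 1 FPKM. Their part in the results was not tested.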

How the data were processed

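Single-cell RNA-seq libraries were made on Fluidigm C1 chips and wells with doublets were removed by eye, per the labels' protocols; doublets were not called again. Builds (GRCm38, mm9) and tools (RSEM 1.2.20, Bowtie 1.1.1) come from the submitters' processing notes, which assign no roles. The deposited values were taken as FPKM, 1 table per lineage group, a unit inferred from the values since no header names it, and the FPKM branch of the design was used. Of 23846 rows, 1830 (7.67%) held no value and 731 rows of 249 repeated symbols were left out, which leaves 21285 genes. RefSeq (GRCm38) placed 19525 of 19609 shared symbols on the same chromosome, and 11200 of its starts were 1 above those in the files (638 were equal), so 1 was added to printed starts. Reads of overlapping genes or paralogs may be shared, and no source used here says how they were split.

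Near-identical profiles (Pearson r above 0.9 on log2 of FPKM plus 1) were averaged, and cells with at least 1000 genes at 1 FPKM and at most 1 of 5 mesothelial genes were kept. Ratios are log2 of class means plus 1 FPKM, over genes detected in 10% of either class. Each list was described over its members that passed. Named genes were Pdgfrb, all pericyte genes, up to 4 members of each other list with the largest absolute ratio, the 12 highest and 12 lowest ratios under the 50% rule given in the text, and the 10 highest rho with Pdgfrb; further adventitial members and genes named as detected in no cell, and a few other list members, were chosen after their values were seen. A gene that the rule selects is not reported here. The members and lists were chosen with earlier results of these data known. The ratio step was run on resampled cells with planted fold changes, each measured against the same draw without it. This checks the arithmetic only. The ratio and the class split were also run on a small made-up example, and the list steps were not tested. Analyses used pandas 2.3.3, numpy 2.4.6, matplotlib 3.10.9 and scipy 1.17.1 under Python 3.11.15.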

Additional observations from a re-analysis of the deposited data

How the results depend on the processing

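Alternatives changed 1 choice at a time; limiting cells to 2000 to 3000 genes, leaving out averaged pairs and setting the median of widely detected genes to 0 were chosen after seeing the data. No paired analysis was possible because replicate numbers only name cells. The 1828 higher genes became 776 with 10 FPKM added, 955 with detection in 25% of either class and 891 with means of log2 values. The 1579 lower genes became 529, 682 and 249 in the same order, 2757 among cells with none of the 5 mesothelial genes and 2465 with no detection filter. The pericyte median of 0.61 became 1.66 with Pdgfrb at 10 FPKM or more as the class (10 cells). In that class 1 cell is enough to meet the detection filter, and 10 pericyte genes passed in place of 8. Of these 6 were higher and 2 lower, beside 25.3% and 26.7% of all genes. Mcam and Gucy1a3 passed there through 1 cell each. The pericyte median was -1.92 with none of the mesothelial genes and 0 with no detection filter. It was -0.10 with the 25% filter and -0.18 without the highest cells. The alveolar median became -0.90 with none of the mesothelial genes, where the median of all genes was -0.47. The adventitial median stayed between 0.61 and 1.47 except for 2.20 with means of log2 values. The myofibroblast median of 1.26 became 0.070 with Pdgfrb above 0, 0.21 with 2000 or more genes, 0.46 within 2000 to 3000 genes, 0.30 with no mesothelial filter, 0.56 with none of those genes, 0 with no detection filter, 0.46 with means of log2 values and 0.50 without the highest cells. The share of cells with Pdgfrb became 62.2% with any value above 0 and 21.1% with none of the mesothelial genes. Of 408 values for 24 named genes under 17 alternatives, 4 changed sign: Gm20300 (0.87) and Polr2l (0.35) with Pdgfrb above 0, Nkain4 (-0.66) with no mesothelial filter and Tmco3 (-0.38) with none of the mesothelial genes. A further 147 moved by over 1.5-fold. The cause of these shifts was not tested. Unknown read depth and 14 cells limit every share, as the intervals show.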
